A study of Mus musculus with 2 samples.

Results

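The HoxC cluster and Hotair form a set of 10 genes on mouse chromosome 15: Hoxc4, Hoxc5, Hoxc6, Hoxc8, Hoxc9, Hoxc10, Hoxc11, Hoxc12, Hoxc13 and the long non-coding RNA gene Hotair. They were chosen by name, as 10 of 49997 genes in the gene table used here, and a gene was counted as marked when the deposited annotation joined an H3K27me3 peak to its symbol. H3K27me3 is trimethylation of lysine 27 of histone H3. The cells were primary rib chondrocytes of wild-type CD1 mice taken as newborns. They were freed from the cartilage with collagenase and cultured overnight in serum-containing medium. Chromatin was cut enzymatically, and 1 library of DNA precipitated with an antibody against H3K27me3 (ChIP) was compared with 1 library of input DNA from unprecipitated chromatin. No animal number, age beyond newborn, or pooling was given in the labels.

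Hox genes encode homeodomain transcription factors that tell cells their position along the body axis. In each of the 4 mammalian clusters the genes lie in the order in which they are used, with low-numbered anterior genes at one end and high-numbered posterior genes at the other. Genes of the same number in different clusters are called paralogues. Polycomb repressive complex 2 places H3K27me3 and keeps Hox genes silent outside their proper region, so the part of a cluster that carries the mark differs between body levels. Ribs belong to the thoracic level, where genes from the middle of the clusters are known to act, and Hoxc10 belongs to a paralogue group known for blocking rib formation. Hotair is transcribed from the strand opposite to its neighbours and has been described in human cells as a partner of Polycomb proteins.

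The libraries were of similar depth, with 17237574 filtered tags for ChIP and 17004082 for input. Their antibody tags contradicted their titles, since the input carried the antibody name and the precipitated DNA carried the word input, and the titles were followed. Myod1, Neurog1 and Olig2 are developmental regulators of a kind known to carry H3K27me3 in cells that do not use them. They lay wholly under peaks called with the titled ChIP library over the titled input, beside 0.799% of all protein-coding genes. From the same list of genes of other lineages, Pax7 was covered over 51.3% and Gata1 over 0%. There were no replicates, so no value below has a replicate error and no test was made. In a bulk library, a weak mark in all cells and a strong mark in some of the cells cannot be told apart. The cell label was checked against marker genes, beside a share of 20.7% of all 21900 protein-coding genes joined to a peak. None of 7 chondrocyte genes (Col2a1, Acan, Sox9, Col9a1, Col11a2, Matn1 and Comp) was joined to a peak, and the nearest peak lay 31.2 to 1315 kb away. Of 5 genes of other lineages, 4 were marked (Myod1, Pax7, Neurog1 and Olig2), and the blood gene Gata1 was not, with the nearest peak at 34.6 kb. With 7 genes, a count of 0 lies near that share and says little about the label.

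Letters from the gap at the anterior edge of the widest peak and from the part without peaks are given first, because the cluster's peaks define this change along the map. They are 300-base promoter windows from RefSeq on GRCm38.p6, from 250 bases before to 50 after a transcript start, written 5′ to 3′ on the gene's strand with each CG dinucleotide in capitals. The promoter set used here covered 1 of the 10 genes, Hoxc4. Its window is that of a transcript start inside the gene's span, not at the 5′ end of the span used below. It lay 46.7 kb from the nearest peak, against 30.7 kb for the whole gene. The other 2 windows belong to non-coding genes of the cluster.
Gm36878, minus strand, chr15:102981014-102981313, in the gap just past the edge of the widest peak: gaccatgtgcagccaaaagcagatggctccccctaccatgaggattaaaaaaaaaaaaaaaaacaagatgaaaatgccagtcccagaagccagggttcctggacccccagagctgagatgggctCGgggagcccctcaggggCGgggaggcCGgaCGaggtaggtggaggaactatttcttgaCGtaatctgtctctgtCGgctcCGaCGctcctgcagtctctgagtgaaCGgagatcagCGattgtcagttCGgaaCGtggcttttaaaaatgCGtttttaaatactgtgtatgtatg
Gm29905, minus strand, chr15:102998118-102998417, across the 5′ end of Hoxc6: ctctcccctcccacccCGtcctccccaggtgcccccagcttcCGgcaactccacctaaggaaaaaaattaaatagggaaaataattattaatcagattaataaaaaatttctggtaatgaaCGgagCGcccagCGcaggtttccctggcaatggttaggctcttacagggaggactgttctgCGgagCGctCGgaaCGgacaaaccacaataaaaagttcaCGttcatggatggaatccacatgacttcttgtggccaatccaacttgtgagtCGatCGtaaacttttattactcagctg
Hoxc4, plus strand, chr15:103034145-103034444, at the anterior end: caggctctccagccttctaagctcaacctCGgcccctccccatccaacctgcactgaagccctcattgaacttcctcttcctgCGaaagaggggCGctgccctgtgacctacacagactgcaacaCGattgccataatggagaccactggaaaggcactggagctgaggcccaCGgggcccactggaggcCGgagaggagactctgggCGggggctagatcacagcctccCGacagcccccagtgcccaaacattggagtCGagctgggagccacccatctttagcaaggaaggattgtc
The end of the Gm36878 window nearest to the widest peak lay 31 bp past its edge. It held 13 CG dinucleotides and was 51% G and C. Gm29905 held 12 at 47%, and Hoxc4 held 9 at 60.3%. The median over all 32851 promoter windows of the table was 7, and 63.7% of them held at most as many CG dinucleotides as Gm36878. No base of the 3 windows lay under a peak.

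The cluster also carries microRNA genes, and their mature sequences are shown because 1 gene lies under the widest peak and the other in the part without peaks. The sequences are RNA from RefSeq on GRCm38.p6, with the seed (bases 2 to 8, the part that pairs with targets) in capitals. Mir196a-2 lies between Hoxc10 and Hoxc9, and Mir615 lies inside Hoxc5. Mir196b of HoxA shares a seed with Mir196a-2.
mmu-miR-196a-5p, from Mir196a-2: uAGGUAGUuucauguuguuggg
mmu-miR-196b-5p, from Mir196b: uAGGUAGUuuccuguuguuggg
mmu-miR-615-3p, from Mir615: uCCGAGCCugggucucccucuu
mmu-miR-615-5p, from Mir615: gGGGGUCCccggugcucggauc
The first pair of sequences differed by A12C, counted from 1 at the 5′ end with the miR-196a base first.

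H3K27me3 covered the posterior part of HoxC. The widest peak ran from beyond Hoxc13 into Hoxc9, a second peak ended between Hoxc9 and Hoxc8, and the part from Hoxc8 to Hoxc4 held no peak. Of the 10 genes, 7 were joined to a peak (Hoxc13, Hoxc12, Hotair, Hoxc11, Hoxc10, Hoxc9 and Hoxc8) and 3 were not (Hoxc6, Hoxc5 and Hoxc4). Among the protein-coding genes alone this was 6 of 9, beside the 20.7% of all protein-coding genes joined to a peak in the same way. For long non-coding RNA genes such as Hotair the share joined to a peak was 2.07% of 12731. That share counts names found in the annotation and can understate such genes at peaks. Gm36878, for example, had 86.4% of its length under a peak but was not named. Only 2 peaks lay in the cluster, and the window from the start of Hoxc13 to the end of Hoxc4 (chr15:102921131-103036856, GRCm38, 115.7 kb) was under peaks over 64.9 kb, or 56.1% of its length.

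**Figure D1:**
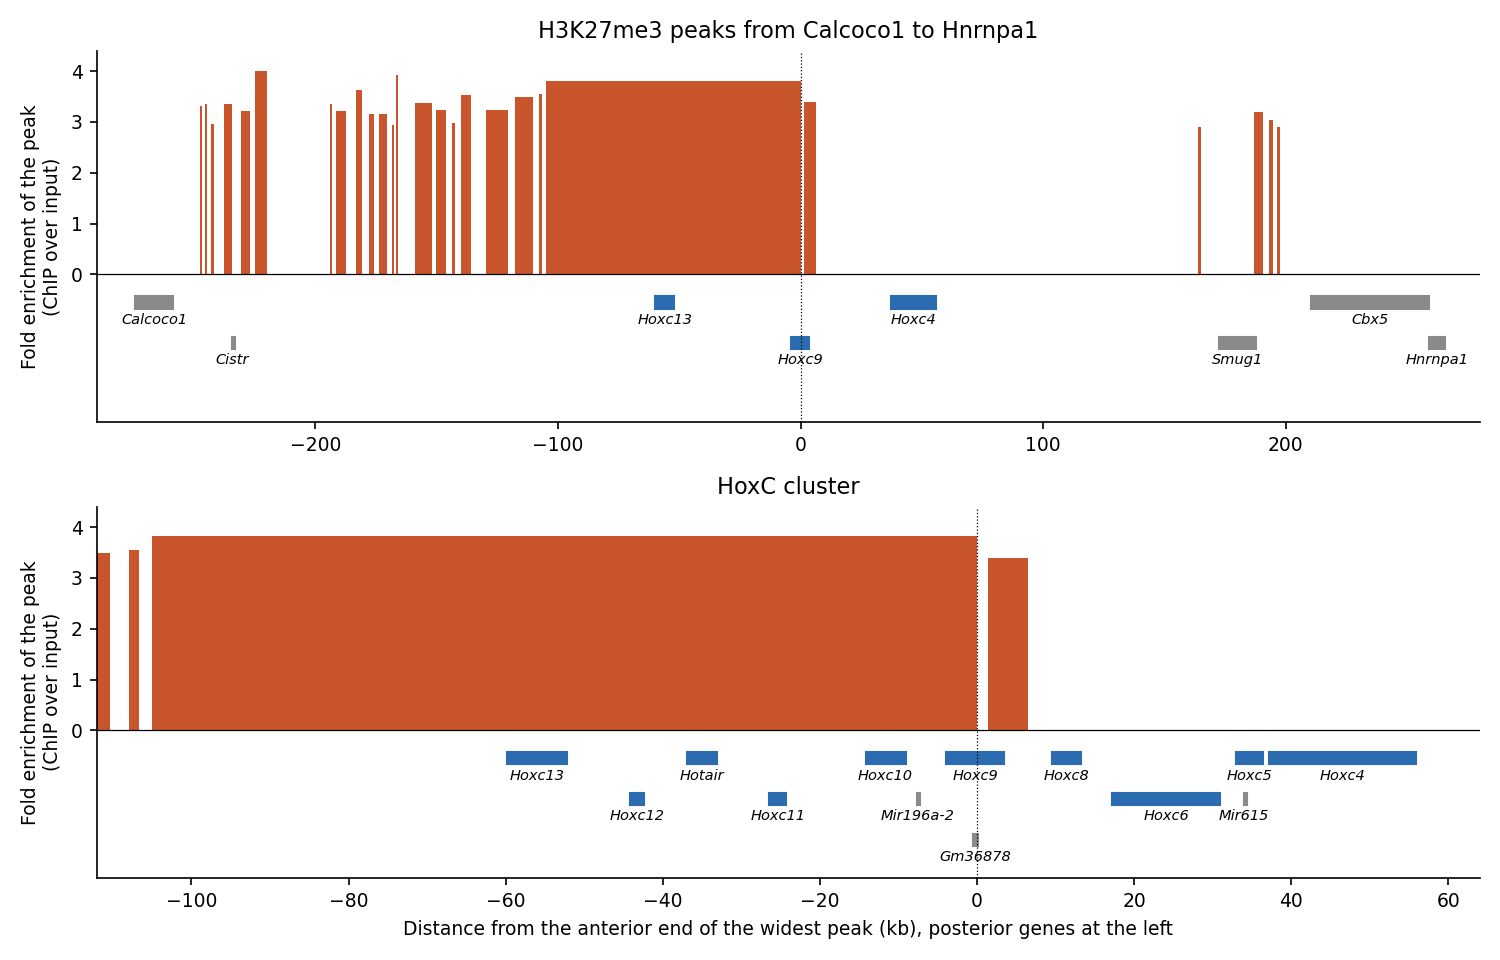
H3K27me3 peaks (orange bars, height fold enrichment of ChIP over input, width to scale) by distance in kb from the anterior end of the widest peak, from Calcoco1 to Hnrnpa1 (top) and over the HoxC cluster (bottom); blue boxes are HoxC genes and Hotair, grey boxes other genes. Peaks run unevenly up to the 105.1 kb block over Hoxc13 to Hoxc9, and after a second peak of 5.06 kb there is none for 157.5 kb.

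The first peak of the cluster, chr15:102875900-102980983, was 105.1 kb wide and the widest of all 19359 peaks. Its pileup, which averages the ChIP fragments stacked over a peak, was 14.38, and the input background implied by the deposited values was 3.03 fragments. The fold enrichment, which is the ratio of both after adding 1 to each, was 3.81, with a mean q-value of 0.00154. Over all peaks the median pileup was 11.04 and the median fold enrichment 3.16 (quartiles 3.03 and 3.33). The fold enrichment of this peak ranked 205 among all peaks. Of 670 peaks of at least 10 kb, 7 had a higher fold enrichment, and the median of those 670 was 3.497.

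The second peak, chr15:102982367-102987423, was 5.06 kb wide and lower on each scale. Its pileup was 11.91 and its fold enrichment 3.39, which together imply an input background of 2.81 fragments. The mean q-value was 0.0154. By fold enrichment it stood at the 82.1 percentile of all peaks. The gap between both peaks was 1383 bp (chr15:102980984-102982366), and 8.54% of the 19339 gaps between neighbouring peaks were as short or shorter. Past the second peak there was no peak for 157.5 kb (chr15:102987424-103144931), whereas the median gap was 6.76 kb and 13.5% of gaps were at least as long.

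**Figure D2:**
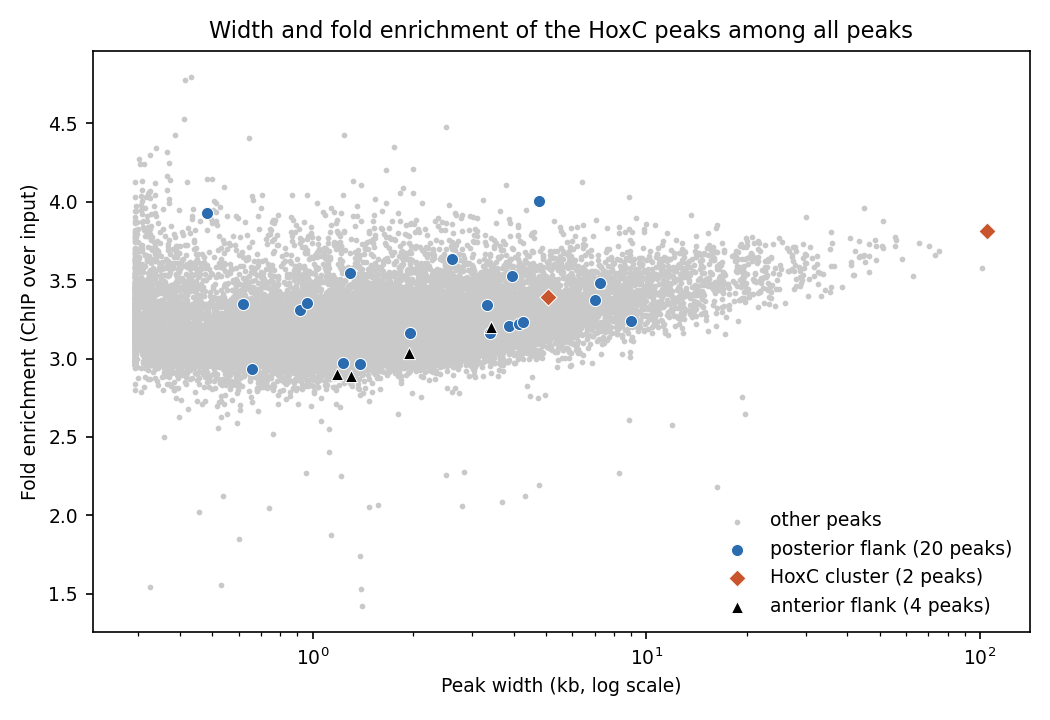
Width in kb (log axis) against fold enrichment of ChIP over input for all peaks (grey), the 2 peaks of the HoxC cluster (orange diamonds), the 20 peaks of the posterior flank (blue circles) and the 4 of the anterior flank (black triangles). The 105.1 kb peak lies farthest to the right at a fold enrichment of 3.81, the second HoxC peak falls among the flank peaks at 3.39, and the anterior flank peaks do not exceed 3.20.

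The most posterior genes lay deep inside the widest peak. Hoxc13 (chr15:102921131-102928814), which is required for hair and nail formation, was covered over its whole 7684 bp, and its 5′ end lay 59852 bp inside the peak's anterior edge. The peak began 45.2 kb before Hoxc13, on its posterior side. Hoxc12 (chr15:102936826-102938609), a posterior homeodomain gene, was covered over its whole 1784 bp, with its 5′ end 44157 bp inside the edge. Hotair (chr15:102944062-102947946, minus strand) lies between Hoxc12 and Hoxc11, and all of its 3885 bp were under the peak. Its 5′ end lay 33037 bp inside the edge. Of long non-coding RNA genes in the gene table, 1.30% were wholly under peaks.

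Hoxc11 and Hoxc10, both genes of the lumbar and sacral levels and of the hind limb, were also covered completely. Hoxc11 (chr15:102954526-102956701) was under the peak over 2176 bp, with its 5′ end 26457 bp inside the edge. Hoxc10 (chr15:102966796-102971898) was under it over 5103 bp, with its 5′ end 14187 bp inside. Whole coverage of a gene was uncommon, since 0.799% of all protein-coding genes had the whole gene body under peaks. The widest peak held 4 of the 9 HoxC protein-coding genes whole, and Hotair and Mir196a-2 with them.

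Hoxc9, a gene that specifies thoracic motor neurons, held the anterior edge of the widest peak but not the end of all marking. The widest peak reached 3951 bp past its 5′ end and stopped inside the gene, which spans chr15:102977032-102984444. Of its 7413 bp, 3952 lay under the widest peak and 2078 under the second peak, 81.3% in all. The 1383 bp gap between the peaks lay wholly within Hoxc9 on the map, and so did the start of Gm36878, a long non-coding RNA gene on the opposite strand (chr15:102980477-102981063). Gm36878 had 86.4% of its 587 bp under the widest peak, and the remaining bases, its start among them, lay in the gap. The second peak ran 2979 bp past the end of Hoxc9, so the last base under a peak lay 10391 bp past the 5′ end of this gene, between Hoxc9 and Hoxc8.

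Hoxc8, a regulator of thoracic vertebrae and ribs, had no base under a peak. It spans chr15:102990539-102994275, and its 5′ end lay 3116 bp past the end of the second peak and 9556 bp past the edge of the widest one. It was counted as marked because the annotation joined peaks within 5 kb of a gene, placing the second peak 3200 bp upstream of its own record of Hoxc8. It was therefore the gene just inside this reach, and Hoxc6, at 10.8 kb from a peak, was the one just outside. When a peak had to overlap the gene body, 5 of the 9 protein-coding genes were marked, beside 15.3% of all protein-coding genes, and Hotair with them. When peaks had to cover at least 50% of the body, the same 5 and Hotair remained, and 2.78% of all protein-coding genes passed.

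The anterior genes were increasingly far from any peak. Hoxc6 (chr15:102998226-103011882, 13657 bp), a gene of the forelimb and upper thoracic level, had its nearest peak at 10.8 kb. Hoxc5 (chr15:103014008-103017429, 3422 bp), its neighbour of cervical and forelimb levels, was 26.6 kb from a peak. Hoxc4 (chr15:103018097-103036856, 18760 bp), the most anterior gene of the cluster, was 30.7 kb from one. No peak was called below a pileup of 9.86 fragments in these data, so H3K27me3 below that level over these genes was not detectable at this depth. The peak lists hold no signal between peaks, so that no level can be given for Hoxc8, Hoxc6, Hoxc5 or Hoxc4.

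The non-coding genes of the cluster lay on both sides. Mir196a-2 (chr15:102973350-102973434), a microRNA gene whose product is known to target Hoxb8 messenger RNA, was wholly under the widest peak. Mir615 was 27.5 kb from the nearest peak. The long non-coding RNA genes Gm29905 and Gm30528 on the anterior side had no base under a peak and lay 9.91 and 39.4 kb from one. Of the 6 microRNA genes in the 4 Hox clusters, 5 were wholly under peaks (Mir196a-1, Mir196a-2, Mir196b, Mir10a and Mir10b) and Mir615 was the exception, beside 2.77% of 1228 microRNA genes in all. Mir10a and Mir10b share a seed with each other.
mmu-miR-10a-5p, from Mir10a: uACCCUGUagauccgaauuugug
mmu-miR-10b-5p, from Mir10b: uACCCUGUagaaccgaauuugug

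The marked part continued on the posterior side beyond the cluster, in separate peaks. Between Calcoco1, the nearest protein-coding gene on that side, and the widest peak lay 153.7 kb with 20 peaks, which covered 41.1% of it. They were 0.482 to 8.97 kb wide (median 2.96 kb), with a fold enrichment of 2.93 to 4.005 (median 3.33) and a pileup of 10.01 to 14.11. The mean q-value was at most 0.05 in 17 of the 20. The highest, chr15:102756220-102761001 of 4.78 kb, had a fold enrichment of 4.005 and ranked 54 among all peaks, above the widest peak. Peaks came to within 1582 bp of the widest peak.

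None of these 20 peaks was joined to a gene in the annotation. In the gene table, 3 genes of long non-coding RNA lay there: Gm36560 with 33.4% of its length under peaks, Gm36510 with 25.2%, and Cistr with 7.46%, which was 35 of its 469 bp. The protein-coding neighbours on this side had no base under a peak. The nearest peak was 8.43 kb from Calcoco1, 9.63 kb from Atp5g2 (a subunit of mitochondrial ATP synthase) and 55.2 kb from Atf7 (a stress-responsive transcription factor).

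The anterior side was sparse. Up to Hnrnpa1, which encodes an RNA-binding protein of splicing, there were 4 peaks, 1.19 to 3.43 kb wide, with a fold enrichment of 2.89 to 3.20. Their mean q-values were 0.0354 to 0.0988, and 1 of them was at most 0.05. Smug1, a DNA repair gene, had 905 bp (5.78%) under a peak by the gene table but was not named in the annotation. Cbx5, which encodes the heterochromatin protein HP1 alpha, was 12.8 kb from a peak, and Hnrnpa1 was 61.2 kb from one. D930007P13Rik, a long non-coding RNA gene, was named through 1 peak over 5.50% of its length, and Gm28876 was 40.5 kb from a peak.

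The HoxC pattern was set beside the other 3 clusters, measured the same way from the outermost Hox genes. Peaks covered 34.2% of HoxA, 84.1% of HoxB and 96.5% of HoxD, against 56.1% of HoxC. The number of Hox genes joined to a peak was 5 of 11 in HoxA, 10 of 10 in HoxB, 6 of 9 in HoxC and 9 of 9 in HoxD, 30 of 39 together. A peak overlapped the gene body of 4 Hox genes in HoxA, 9 in HoxB, 5 in HoxC and 9 in HoxD. The HoxB gene without such a peak was Hoxb2, 507 bp from the nearest peak by the gene table. The annotation joined Hoxb2 to 3 peaks, placed upstream of, over the end of and downstream of its own record. Hoxc8 was joined to an upstream peak alone. HoxC and HoxA each had an anterior part without peaks, and in HoxB and HoxD peaks with breaks between them reached the anterior end. The 50 kb on the posterior side were covered over 93.1% in HoxC, 98.3% in HoxA, 92.4% in HoxB and 48.2% in HoxD. The 50 kb on the anterior side were covered over 0% in HoxC, 3.07% in HoxA, 67.1% in HoxB and 56.9% in HoxD.

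**Figure D3:**
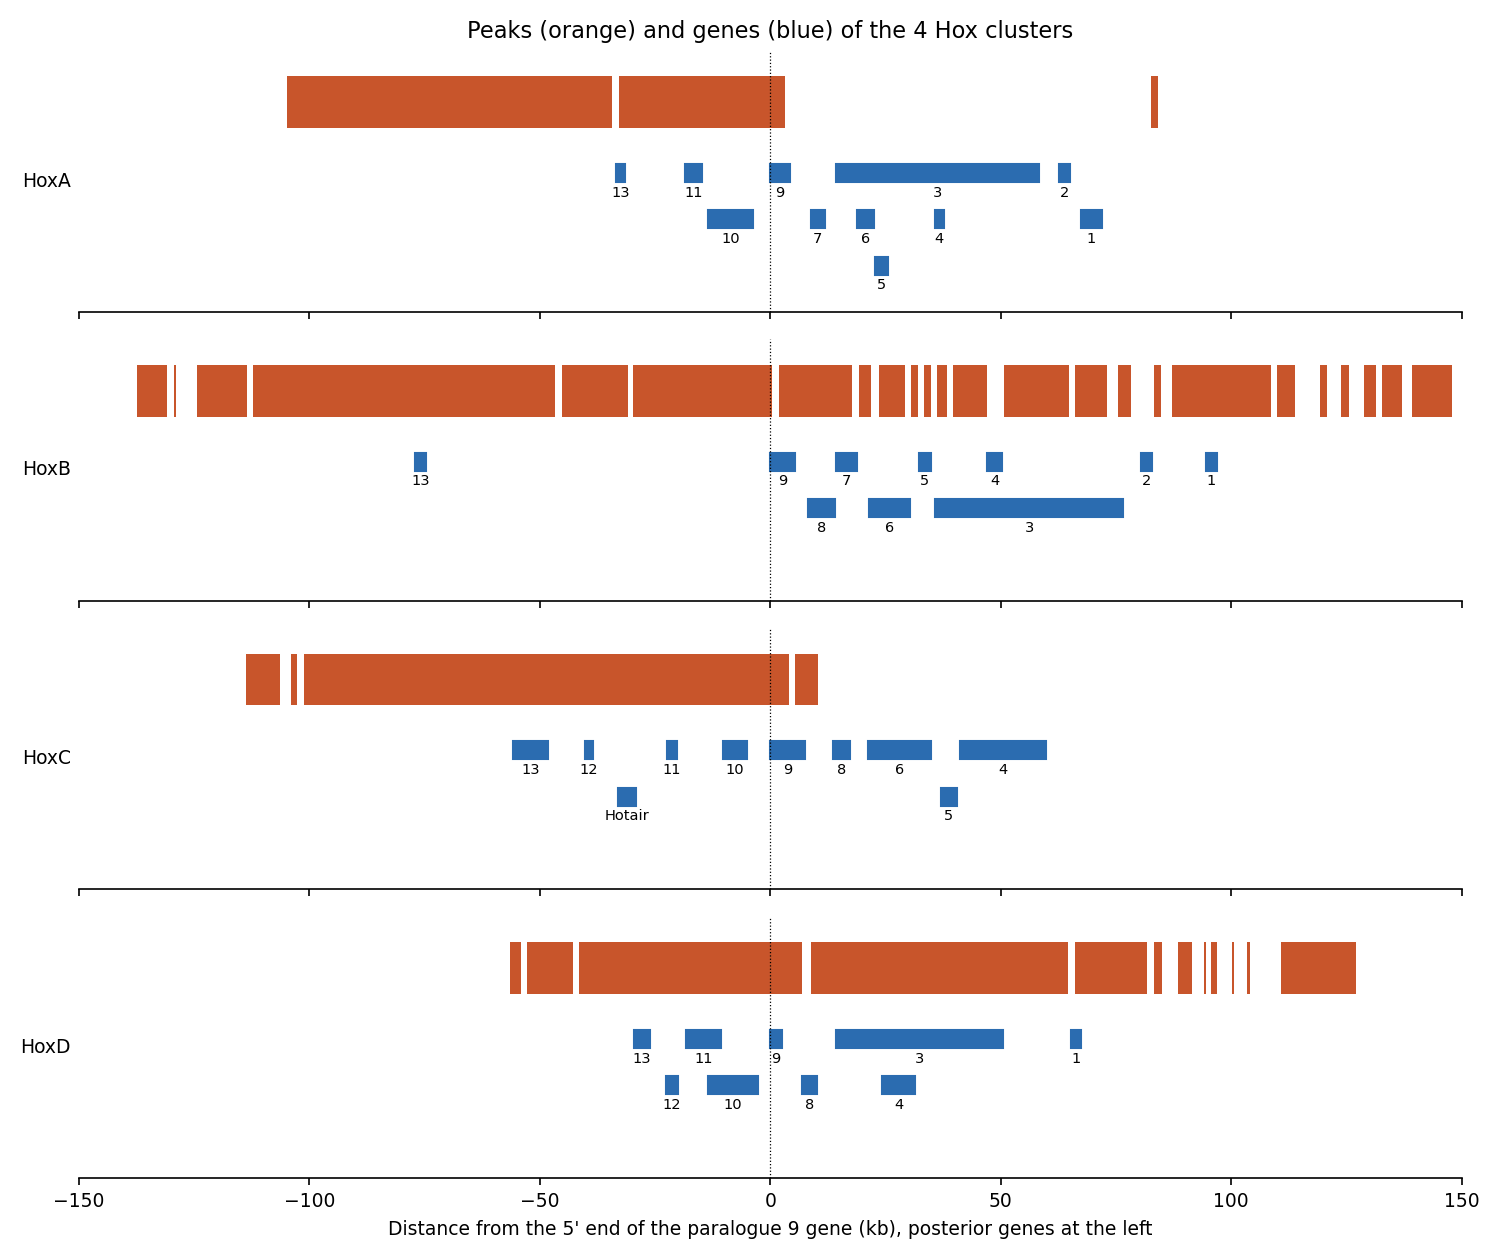
Peaks (orange) and Hox genes (blue, labelled by paralogue number, with Hotair in HoxC) of the 4 clusters by distance in kb from the 5′ end of the paralogue 9 gene, posterior genes at the left. In HoxA and HoxC peaks stop within 3.26 and 10.4 kb past this point and the rest of the cluster is bare, whereas in HoxB and HoxD peaks continue to the anterior end.

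In HoxA the last peak of the cluster ended in the paralogue of Hoxc9. The 36.1 kb peak over Hoxa13 to Hoxa9 ran 3264 bp past the 5′ end of Hoxa9 and stopped inside the gene, and no peak followed for 79.3 kb. In HoxC the widest peak ended 3951 bp past the 5′ end of Hoxc9 and the last peak 10391 bp past it, outside the gene. Of Hoxa9, 76.4% was under the peak, against 81.3% of Hoxc9. Hoxa10 and Hoxa11 were covered whole, as Hoxc10 and Hoxc11 were, and Hoxa13 was covered over 68.6%. Hoxa7 was named only through its flank, at 2252 bp from the peak by its deposited record and 5.53 kb by the gene table. In HoxB a peak also ended inside the paralogue, 398 bp past the 5′ end of Hoxb9, but the next began after 1469 bp. In HoxD the peak over Hoxd9 ended 6946 bp past its 5′ end, outside Hoxd9, and the next began after 1857 bp.

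**Figure D4:**
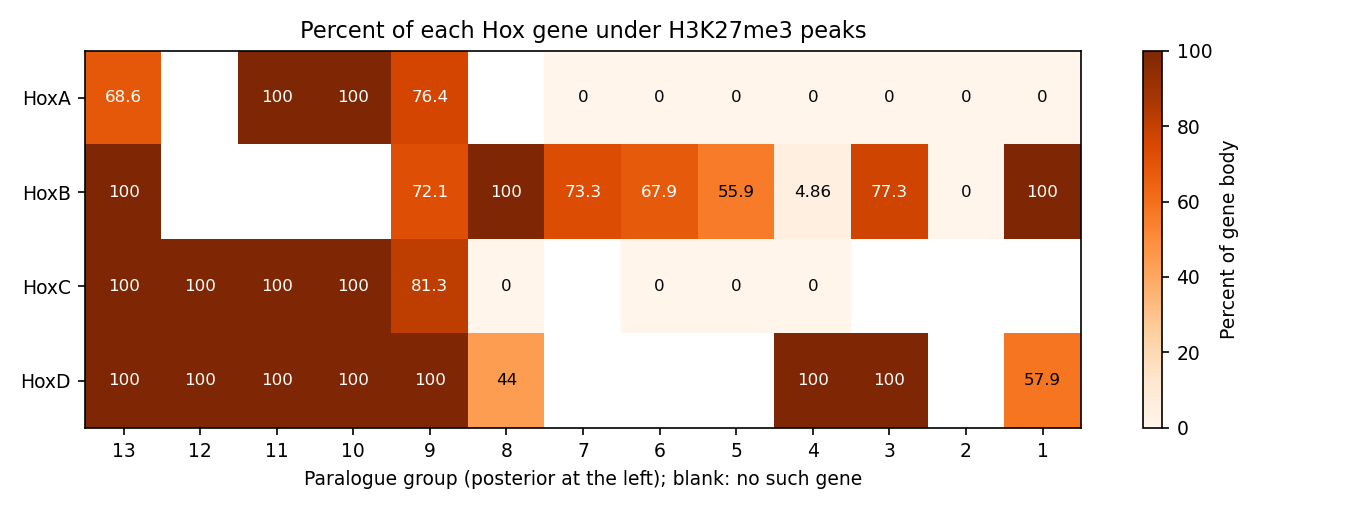
Percent of each Hox gene body under H3K27me3 peaks (colour and number), by cluster and paralogue group, posterior at the left; blank cells have no such gene. Groups 9 to 13 hold values between 68.6 and 100 in all clusters, and groups 8 and below are 0 in HoxA and HoxC.

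By paralogue group, the posterior genes were marked in every cluster and the anterior genes differed. All 4 genes of group 9, 3 of group 10, 3 of group 11, 2 of group 12 and 4 of group 13 had a peak over the gene body. In group 8, Hoxb8 was covered whole and Hoxd8 over 44%, while Hoxc8 was at 0%. In group 6, Hoxb6 was covered over 67.9%, while Hoxa6 and Hoxc6 were at 0%. In group 5 the value was 55.9% for Hoxb5 and 0% for Hoxa5 and Hoxc5. In group 4, Hoxd4 was covered whole and Hoxb4 over 4.86%, while Hoxa4 and Hoxc4 were at 0%. In group 2 neither Hoxa2 nor Hoxb2 had a base under a peak. The genes that were not named numbered 9, of which 3 were in HoxC and 6 in HoxA.

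Hox proteins bind DNA with partners that include the Meis and Pknox families, and Cdx proteins activate Hox genes in the embryo. None of the 5 genes of these families (Meis1, Meis2, Meis3, Pknox1 and Pknox2) was joined to a peak, a count that covers these families alone and not all partners of Hox proteins. The nearest peak was 6.49 kb away for Meis2 and 239.6 kb for Pknox2, with a median of 27.2 kb. All 3 Cdx genes were joined to peaks. Cdx2 was covered whole by a peak of 29.5 kb, Cdx4 over 38.3% and Cdx1 over 9.24%. The list held few genes, and its counts stand beside the 20.7% of all protein-coding genes.

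Other peaks of at least 50 kb held fewer whole genes than the HoxC peak. The genes of most like pattern were those held whole by a single peak of at least 50 kb, the measure being this coverage in the 1 ChIP library. Of 14 such peaks, the HoxC peak held 4 whole protein-coding genes, 2 peaks held 2, 6 held 1 and 5 held none. Their fold enrichment ranged from 3.53 to 3.88 and their pileup from 13.27 to 14.38, the HoxC peak having the top pileup. Outside the Hox clusters 7 genes were held in this way: Zic2 and Zic5 under 1 peak of 56.1 kb, Zic4, Nkx2-3, Dmbx1, Evx1 and Hand2. Evx1 lay beside HoxA, on its posterior side. Its peak was separated from the HoxA peak by a break of 1509 bp, so it is not apart from that cluster. Among peaks of at least 10 kb, a 48.5 kb peak of HoxD held 5 whole genes (Hoxd9 to Hoxd13), more than the HoxC peak.

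The promoter windows of the Hox genes were also compared with the peaks. Among 16 windows of 14 Hox genes that lay wholly under a peak, the number of CG dinucleotides was 4 to 37 (median 13.5). Among the 8 with no base under a peak, Hoxc4 included, it was 9 to 45 (median 23). The Hoxc4 window had the lowest number of these 8, together with Hoxa2 and Hoxa7. Most of the 8 were HoxA windows, and no HoxC window lay wholly under a peak, so the comparison is largely between clusters. The windows of Hoxa13, with the highest number, and Hoxd1 lay in short breaks between peaks. The motif TGATTNAT, a composite site of Hox proteins and their partners in which N is any base, was searched on both strands. It matched once in the Gm29905 window and not in those of Gm36878 and Hoxc4, and 3.22% of all promoter windows held it. The CTCF core motif, searched on both strands, matched in none of the 3 windows and in 0.557% of all windows.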

How the data were processed

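Of the measured libraries, 1 was ChIP and 1 input, grouped by title. Per the submitters' processing notes, CASAVA 1.8.4, Bowtie2 and MACS2 were used with the mouse build mm10. Per the file headers, peaks were called with MACS 2.1.0.20140616 in broad mode (effective genome size 1.87 Gb, fragment length 294 bp, tag length 100 bp, q-value cutoff 0.05, larger library scaled to the smaller). The authors deposited for every peak its pileup (ChIP coverage signal), its fold enrichment (a ratio with 1 added to both sides) and, as −log10 means over the peak, a p-value and a q-value. Some of these mean q-values lie above the cutoff. A second deposited table joined the same peaks (19359 of 19359 with identical positions, pileup, fold enrichment and q-value) to Ensembl records no farther than 5 kb away, by a tool not given in the sources used here.

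ChIP held 17574613 tags and input 17369199 before filtering. Tags are not counted per gene here, so no interval could be given, and depth acts through the smallest pileup called.

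Symbols, split at semicolons, were looked up in RefSeq's gene table for GRCm38.p6, whose gene positions were used. The strands of Hoxc5 and Hoxc6 were taken from the direction shared by the cluster. The implied input background was computed as (pileup + 1) divided by fold enrichment, minus 1. Overlaps were computed in Python 3.11.15 with numpy 2.4.6 and pandas 2.3.3, and the interval code was tested on simulated data. No column of other samples was present (0 columns).

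The members and lists were chosen with earlier results of these data known. The text names the 10 genes, non-coding genes of the window and flanks, the 3 nearest protein-coding genes on each side, all Hox genes, the Meis, Pknox and Cdx genes, the cell type markers, and genes outside the Hox clusters held whole by a peak of at least 50 kb. The flank genes and the promoter and motif values were chosen after the values were seen. Some genes of the partner list fixed for the analysis are not reported here. With 1 library per group no test was made. Alternatives were filters on q-value, fold enrichment and width, other rules of marking, joined peaks, a wider window and other gene positions.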

Additional observations from a re-analysis of the deposited data

How the results depend on the processing

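Of 42 recomputed values, 26 stayed within a set tolerance, 16 moved and 0 reversed. The tolerance was 1.5-fold for counts, 294 bp for the edge, 0.146 for fold enrichment and, for percentages, the width of a 95% Wilson interval over bases. Bases under 1 peak are not independent, so this last tolerance is narrow, is no error of the percentage, and sets much of the division into moved and unmoved values. The number of marked genes was 7 or 6 under all 9 alternatives, and the gene lost was Hoxc8 each time. The covered share of HoxC was 51.7% when peaks were limited to mean q-values up to 0.01 or to a fold enrichment of at least 3.5, both of which drop the second peak, 55.6% with the window widened by 5 kb on each side and 57.3% with peaks joined within 5 kb. The filters keep or drop whole peaks and the widest peak passed all of them, so its edge could not move under them. These unmoved values are nonetheless among the 26. The edge of the widest peak thus stayed 3951 bp past the 5′ end of Hoxc9 under every filter. It moved to 10391 bp with peaks joined within 5 kb or 20 kb, which adds the second peak and places the edge past Hoxc9, and to 4543 bp with the deposited gene records, whose Hoxc9 starts earlier. The median fold enrichment of the HoxC peaks, 3.60, became 3.81 under the same 2 filters and 3.79 when weighted by width. Joining within 5 kb gave a domain of 136.1 kb, and joining within 20 kb gave one of 200.5 kb. HoxB was covered over 83.2% for mean q-values up to 0.05, 77.9% for those up to 0.01, 69.7% with a fold enrichment of at least 3.5 and 84.9% with the wider window. The wider window gave 34.9% for HoxA and 96.8% for HoxD. No paired analysis was possible because ChIP and input were 1 library each, and no library could be left out.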

Other observations

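The break between the 2 HoxC peaks was compared with other short breaks, defined after the data were seen as gaps under 2 kb between neighbouring peaks. The 4 Hox clusters held 14 such breaks: 10 in HoxB, 2 in HoxD, 1 in HoxA and 1 in HoxC. The 1383 bp break of HoxC, with the Gm36878 promoter window, prompted the comparison and is left out of it. Of the other 13, 3 overlapped a promoter window of the RefSeq table, beside 407 of all 4444 short breaks (9.16%). The windows were those of Hoxa13 at a break of 1509 bp in HoxA, and Gm38462 and Hoxd1 at breaks of 1857 and 1539 bp in HoxD. The table holds promoters for only part of the Hox genes. The breaks of 1 cluster come from the same library and are not independent.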
